A study of Mus musculus with 20 samples.

Results

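Itgav, the gene of the integrin alpha-v subunit, was followed here together with the 4 beta subunit genes Itgb1, Itgb3, Itgb5 and Itgb8 and with Comp, the gene of cartilage oligomeric matrix protein. These 6 genes are members of a count table of 29200 genes, and they were found in it by matching each symbol to its Ensembl identifier. Itgav and Comp were selected on their difference between genotypes at 12 months, so that their 12-month values, the age comparisons and the interaction are given for them as a description with no test. The beta subunits were named because they pair with alpha-v. They too were chosen with earlier results of these data known, so that their tests are not independent of that choice. A mean of at least 50 counts per library was reached by 5 of the 6 genes, all but Itgb3.

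RNA was sequenced from the cerebellum of 20 C57BL6/N mice, with 5 mice in each of 4 groups, WT/WT or 304Q/304Q and aged 2 or 12 months. The 304Q/304Q mice carry an expanded glutamine repeat of 304 in both alleles of their own Atxn3 gene, under its endogenous promoter, as a knock-in model of spinocerebellar ataxia type 3. The WT/WT mice carry no expansion, and their labels name the wild-type gene as ataxin-2 whereas the study describes Atxn3. The knock-in animals all descend from a single founder. According to the study, the sequenced mice were male. Each library stands for 1 mouse. Since whole cerebellum was used, fewer cells of a type and less RNA per cell cannot be told apart.

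Integrins are receptors of 1 alpha and 1 beta subunit that link the extracellular matrix to the cytoskeleton. The alpha-v subunit pairs with several beta subunits, and most of these pairs bind ligands that hold the short peptide arginine, glycine, aspartate (RGD). The pairs with the beta 5 and beta 8 subunits are known to bind the latent form of TGF-beta, and the beta 8 pair on glia is known for releasing TGF-beta that brain vessels need. The beta 5 subunit is also known from microglia and from the uptake of dying cells. Comp is a pentameric matrix protein of the thrombospondin family, best known from cartilage and tendon, and it holds an RGD peptide.

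The coding sequences of these genes show how the ligand and the receptor tails are built. They are taken from the GENCODE M21 transcripts of GRCm38, 5′ to 3′ on the coding strand, and the capitals mark the codons of the motif named. The stretch of Comp shown lies at chr8:70377211-70377237, on the + strand, in exon 10 of 19, and its RGD codons code for residues 365 to 367 of 755. The coding sequence of Itgav holds no RGD codons.

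Comp, RGD: ctggatggcCGGGGCGATgcctgcgac

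The cytoplasmic tails of most beta subunits hold the motif NPxY (asparagine, proline, any residue, tyrosine), which is known to bind talin and other adaptors. It was searched in the last 60 residues of each beta subunit. Itgb1 holds 2 such motifs, at residues 780 to 783 and 792 to 795 of 798. The first stretch joins exons 15 and 16 of 16, between positions 128726184 and 128732049 of chromosome 8, and the second lies at chr8:128732056-128732085 in exon 16. Itgb3 holds 1 motif at residues 769 to 772 of 787, joined from exons 14 and 15 of 15 between positions 104665630 and 104667106 of chromosome 11. Itgb5 holds 1 motif at residues 771 to 774 of 799, joined from exons 14 and 15 of 15 between positions 33947879 and 33948683 of chromosome 16. These 3 genes lie on the + strand.

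Itgb1, first NPxY: acgggtgaaAATCCTATTTACaagagtgcc

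Itgb1, second NPxY: actgtggtcAATCCGAAGTATgagggaaaa

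Itgb3, NPxY: acagcaaacAACCCGCTGTATaaagaggcc

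Itgb5, NPxY: atggcctcaAACCCCCTGTACagaaagccc

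Itgb8 holds no NPxY motif in its last 60 residues. The end of its coding sequence, residues 756 to 767 of 767, is shown instead. It lies at chr12:119163120-119163155 on the − strand, in exon 14 of 14.

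Itgb8, end of the coding sequence: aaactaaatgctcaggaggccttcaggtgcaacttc

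On GRCm38, Itgav (ENSMUSG00000027087) spans chr2:83724397-83806916 on the + strand. Within it lie the opposite-strand genes Gm13684, which shares 634 exon bases with it and had a mean of 0.3 counts, and Dnmt3l-ps1, which shares 0 exon bases. Comp (ENSMUSG00000031849) spans chr8:70373558-70382066 and Itgb1 (ENSMUSG00000025809) chr8:128685654-128733200, both on the + strand. Itgb3 (ENSMUSG00000020689) spans chr11:104608000-104670476 and Itgb5 (ENSMUSG00000022817) chr16:33829665-33949338, both on the + strand, and Itgb8 (ENSMUSG00000025321) spans chr12:119158022-119238802 on the − strand. These other 5 genes overlap no annotated gene.

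Library totals lay between 11385380 and 27636687 counts with a median of 13522933. Mice of 1 group varied with a common biological coefficient of variation of 0.113. Levels are given in CPM, the counts scaled to a common library size, and in RPKM, which is CPM per kilobase of merged exons, where genes are compared with each other. All 12 Purkinje cell, 12 granule cell and 15 astrocyte markers were tested, as cerebellum should hold them. Some libraries held RNA of neighbouring tissue. The 12 choroid plexus markers summed to between 27.7 and 2205 CPM per library, and the 15 skeletal muscle markers reached 364.3 CPM in 304Q/304Q mouse 5 of 12 months against 12.6 to 31.6 CPM in the other libraries. Libraries also differed in a trend with GC content, which is described beside the results it touches.

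Per length, Itgb5 had the highest and Itgb3 the lowest mean of the 6 genes in each of the 4 groups. In WT/WT mice of 2 months the mean levels were 23.8 RPKM for Itgb5, 16.6 RPKM for Itgb1, 4.98 RPKM for Itgb8, 3.64 RPKM for Itgav, 0.937 RPKM for Comp and 0.604 RPKM for Itgb3. The lowest Itgb5 value, 21.4 RPKM, lay above the highest Itgb1 value, 18.0 RPKM. Itgb8 and Itgav were neighbours whose values overlapped in this group, from 3.33 to 6.26 RPKM and from 3.06 to 4.35 RPKM. In 304Q/304Q mice of 12 months the order was another, with Itgav at 4.43 RPKM next to Itgb8 at 4.17 RPKM, and Comp at 4.60 RPKM within the range of both. Itgb6, a further partner of alpha-v in epithelia, was nearly absent, with group means between 0.0302 and 0.0864 RPKM.

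**Figure D1:**
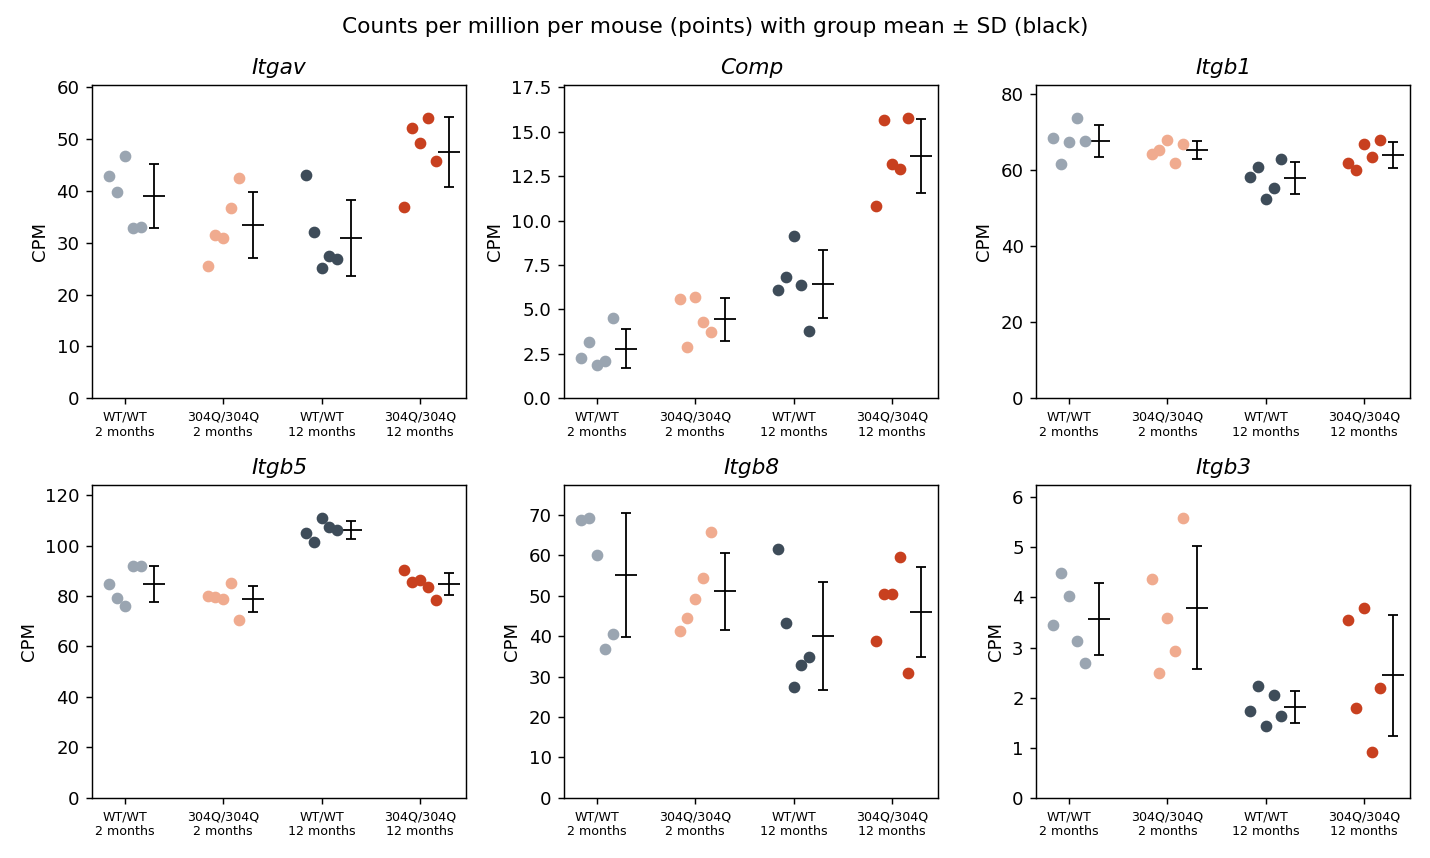
Levels of the 6 genes in CPM for each of the 20 mice (points, 5 per group) with the group mean and SD (black). Itgav and Comp have their highest group means in 304Q/304Q mice of 12 months (47.6 and 13.7 CPM), whereas Itgb5 is highest in WT/WT mice of 12 months (106.2 CPM).

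At 12 months, but not at 2 months, the 304Q/304Q group held more Itgav than the WT/WT group. At 2 months, the WT/WT mice had 42.9, 39.7, 46.8, 32.8 and 33.0 CPM of Itgav and the 304Q/304Q mice 25.6, 31.6, 31.0, 36.8 and 42.4 CPM. At 12 months, the WT/WT mice had 43.2, 32.0, 25.2, 27.4 and 27.0 CPM and the 304Q/304Q mice 36.9, 52.2, 49.2, 54.0 and 45.7 CPM. The 12-month groups overlapped through 1 mouse on each side, the WT/WT mouse at 43.2 CPM and the 304Q/304Q mouse at 36.9 CPM.

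The group means of Itgav were 39.1 ± 6.12 CPM (SD, n = 5) in WT/WT and 33.5 ± 6.39 CPM in 304Q/304Q mice at 2 months, and 30.9 ± 7.29 CPM and 47.6 ± 6.75 CPM at 12 months. At 2 months, which had no part in the choice of Itgav, the log2 fold change was -0.23 (SE 0.145) and did not pass edgeR's quasi-likelihood test (Benjamini-Hochberg adjusted p = 0.916). The 95% interval ran from -0.51 to 0.06. Of all 12153 genes tested, 0.0494% had an adjusted p of at most 0.05 in this comparison and 1.05% had groups that did not overlap. At 12 months the log2 fold change of Itgav was 0.62 (SE 0.146), a ratio of the means of 1.54. The log2 fold change of Itgav with age was -0.33 (SE 0.146) in WT/WT mice and 0.51 (SE 0.144) in the 304Q/304Q group, and the difference between the genotype effects at the 2 ages was 0.85 (SE 0.205).

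The level of Itgav moved with a trend of the libraries with GC content, whose source was not tested. The GC slope of a library is the slope, over the tested genes, of each gene's deviation from its mean log2 CPM on the GC content of its transcript, so that a library with a negative slope holds relatively more of the AT-rich transcripts. Itgav, with a GC content of 43.5% against a median of 49.7% over the tested genes, followed this slope with r = -0.731 over the 20 mice and -0.833 with group means removed. The slopes of the WT/WT group at 12 months ran from -0.0755 to 0.203 log2 units per 10 points of GC content (median 0.134). Those of the 304Q/304Q group of that age ran from -0.0714 to 0.0406 (median -0.0289). Apart from mouse 1, the older WT/WT mice had slopes from 0.129 to 0.203, above every 304Q/304Q mouse of that age. The mice of 2 months had median slopes of -0.124 (WT/WT) and 0.0093 (304Q/304Q), with ranges that overlapped. With the trend removed, the 12-month log2 fold change of Itgav was 0.55 (SE 0.120), and with 3 surrogate variables in the edgeR model it was 0.38 (SE 0.104). With these variables, the age difference in WT/WT mice was -0.04 and the difference between the genotype effects 0.53. The only WT/WT mouse of 12 months with a negative slope, mouse 1, had 43.2 CPM of Itgav. The 304Q/304Q mouse 4 of that age, of a nearly equal slope (-0.0714), had 54.0 CPM, the highest level of the 20 mice. These are single mice, and the part of the trend in the genotype difference was not tested.

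**Figure D2:**
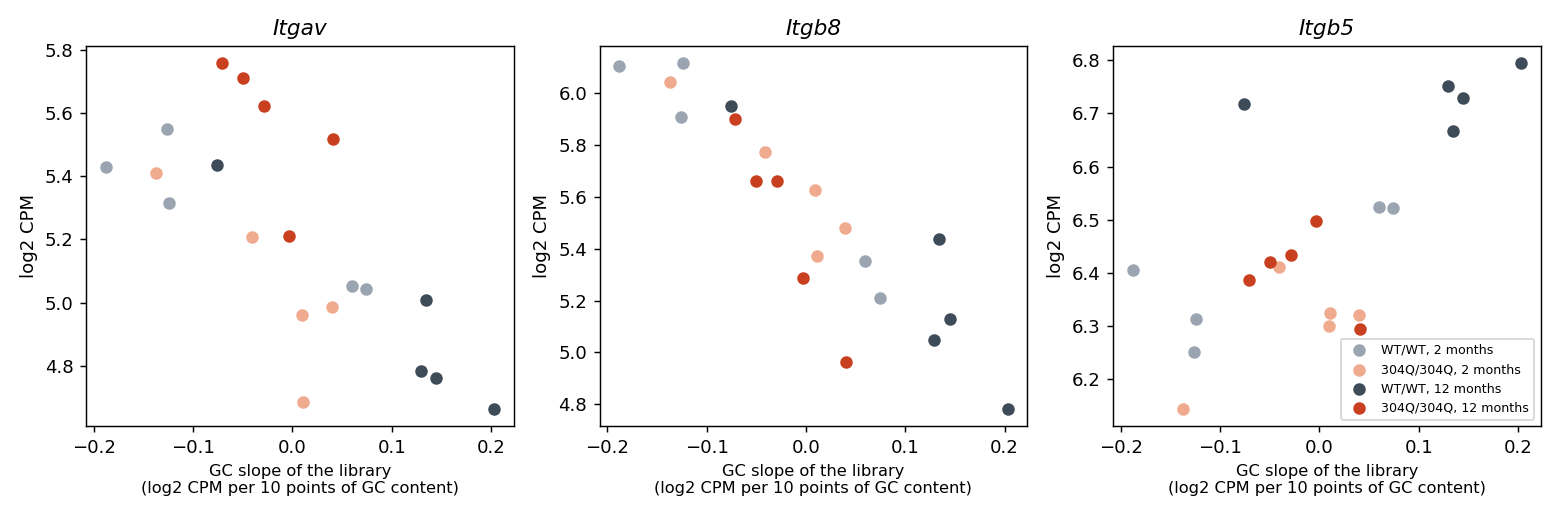
Log2 CPM of Itgav, Itgb8 and Itgb5 against the GC slope of each library, in log2 CPM per 10 points of GC content, for the 20 mice in 4 groups. Itgav and Itgb8 are lower where the slope is higher (r = -0.731 and -0.907), and Itgb5 is higher (r = 0.684).

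Comp was higher in older mice of both genotypes and highest in 304Q/304Q mice of 12 months. At 2 months, the WT/WT mice had 2.25, 3.17, 1.86, 2.09 and 4.53 CPM of Comp and the 304Q/304Q mice 5.57, 2.87, 5.71, 4.29 and 3.72 CPM. At 12 months, the WT/WT mice had 6.11, 6.83, 9.10, 6.35 and 3.75 CPM and the 304Q/304Q mice 10.8, 15.7, 13.2, 12.9 and 15.7 CPM. All 304Q/304Q mice of 12 months lay above all mice of the other groups, whereas the 2-month groups overlapped.

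The group means of Comp were 2.78 ± 1.10 CPM and 4.43 ± 1.21 CPM (SD, n = 5) at 2 months and 6.43 ± 1.91 CPM and 13.7 ± 2.09 CPM at 12 months, in WT/WT and 304Q/304Q mice, respectively. These levels rest on few reads, between 23 and 223 counts per library. At 2 months the log2 fold change was 0.67 (SE 0.249). Its unadjusted p was 0.0132 and its adjusted p 0.768 (edgeR), so that it did not pass the test over all genes. At 12 months the log2 fold change was 1.08 (SE 0.222), a ratio of the means of 2.12. With age it was 1.19 (SE 0.247) in WT/WT and 1.61 (SE 0.226) in 304Q/304Q mice, and the difference between the genotype effects at the 2 ages was 0.42 (SE 0.335), or 0.16 without WT/WT mouse 5 of 2 months. Comp did not follow the GC slope closely (r = 0.234), and with the trend removed its 12-month log2 fold change was 1.17. Without the 304Q/304Q mouse that held muscle RNA, which had 15.7 CPM of Comp, it was 1.02.

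Markers of cartilage and tendon, where Comp is best known, gave no calls between genotypes at 12 months. Of 13 such markers that were counted, 4 passed the limit. Of these 4, 0 had an adjusted p of at most 0.05, where 12.5% of all genes did, so that this count says little. Their sum per library ran from 68.5 to 100.1 CPM in WT/WT and from 77.9 to 96.1 CPM in 304Q/304Q mice. The 13 tested markers of meninges and fibroblasts also gave 0 in either direction, with sums from 207.0 to 286.7 and from 220.3 to 278.0 CPM. The study itself lists Comp among the microglia genes of its cluster I. Comp followed the mean log2 CPM of the 13 tested microglia markers with r = 0.766 over the 20 mice, and -0.037 with group means removed. For the 4 cartilage and tendon markers r was 0.443, and -0.0811 with group means removed. The part of any of these cell types in the level of Comp was not tested.

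Among the beta subunits, Itgb5 fell in 304Q/304Q mice at 12 months, in the opposite direction to Itgav. At 12 months, the WT/WT mice had 105.1, 101.5, 110.9, 107.6 and 106.0 CPM of Itgb5 and the 304Q/304Q mice 90.2, 85.5, 86.3, 83.5 and 78.3 CPM. The groups did not overlap, as was the case for 8.94% of the genes tested. The means were 106.2 ± 3.42 CPM and 84.8 ± 4.33 CPM (SD, n = 5), a ratio of 0.798. The log2 fold change was -0.33 (SE 0.0607, adjusted p = 0.000692, edgeR), where 12.5% of all genes had an adjusted p of at most 0.05. The fold lay below the 0.5 in size that a DEG also had to reach, as 3.09% of the genes did.

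At 2 months, Itgb5 lay between 76.0 and 91.9 CPM in WT/WT mice and between 70.6 and 85.0 CPM in 304Q/304Q mice, and the log2 fold change of -0.11 (SE 0.0608) did not pass the test (adjusted p = 0.896). Itgb5 rose with age in WT/WT mice, by 0.33 (SE 0.0606, adjusted p = 0.00149) on the log2 scale, again with no overlap of the groups. Of all genes, 11.5% had an adjusted p of at most 0.05 in this age comparison and 6.57% had groups that did not overlap. In 304Q/304Q mice the age difference of 0.11 (SE 0.0608) did not pass (adjusted p = 0.373), where 7.26% of all genes did and 7.80% had groups that did not overlap. Both differences that passed rest on the same 5 WT/WT mice of 12 months, whose Itgb5 levels were the highest of all. The interaction of genotype and age was -0.22 (SE 0.0859, adjusted p = 0.209) and did not pass, where 1.95% of all genes did, so that the genotype difference was not shown to differ between the ages.

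Itgb5, with a GC content of 57.0%, also followed the GC slope (r = 0.684, and 0.514 with group means removed). Its 12-month genotype difference was -0.26 with the trend removed and -0.36 with 3 surrogate variables, and it kept an adjusted p of at most 0.05 in both. Its rise with age in WT/WT mice was 0.20 with the trends with GC content and exon length removed, and still passed (adjusted p = 0.0144). The WT/WT mouse 1 of 12 months, with its negative slope, had 105.1 CPM of Itgb5, and the 304Q/304Q mouse 4 with a nearly equal slope had 83.5 CPM. These too are single mice, and the part of the trend in the difference was not tested. Microglia markers rose with age, 10 of 13 tested in each genotype, where 11.5% (WT/WT) and 7.26% (304Q/304Q) of all genes passed in either direction. Their sum ran from 166.9 to 198.4 CPM at 2 months and from 261.3 to 347.4 CPM at 12 months. Between the genotypes at 12 months, 1 of the 13 markers was higher and 0 were lower, where 12.5% of all genes passed. The sums of these markers overlapped, from 261.3 to 316.9 CPM in WT/WT and from 265.7 to 347.4 CPM in 304Q/304Q mice. The part of microglia in the level of Itgb5 was not tested.

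Itgb1, the most widely used beta subunit, fell with age in WT/WT mice and did not pass the test in any other comparison. Its means were 67.8 ± 4.28 CPM and 65.3 ± 2.42 CPM (SD, n = 5) at 2 months and 58.0 ± 4.24 CPM and 64.1 ± 3.40 CPM at 12 months, in WT/WT and 304Q/304Q mice. The WT/WT mice of 2 months had 68.5, 61.6, 67.4, 73.6 and 67.6 CPM and those of 12 months 58.2, 60.9, 52.4, 55.3 and 63.0 CPM, so that the groups overlapped. The change of -0.23 (SE 0.0611) on the log2 scale had an adjusted p of 0.0193, but with the GC trend removed it was -0.15 (adjusted p = 0.153). Without WT/WT mouse 3 or mouse 4 of 12 months its adjusted p was 0.0691 or 0.0504. The genotype difference at 12 months was 0.15 (SE 0.0612, adjusted p = 0.124), with a 95% interval from 0.03 to 0.27.

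The groups of Itgb8 overlapped widely, and none of its comparisons passed the test. At 2 months, its levels ran from 36.9 to 69.2 CPM in WT/WT and from 41.3 to 65.8 CPM in 304Q/304Q mice, and at 12 months from 27.4 to 61.7 CPM and from 31.0 to 59.6 CPM. The genotype difference was -0.11 (SE 0.202, adjusted p = 0.968) at 2 months and 0.20 (SE 0.207, adjusted p = 0.563) at 12 months, with a 95% interval from -0.20 to 0.61 at 12 months. Both signs turned with 3 surrogate variables in the model. Itgb8, the most AT-rich of the 5 tested members with a GC content of 40.4%, followed the GC slope with r = -0.907. Its age difference in WT/WT mice, -0.46 (SE 0.205), had an adjusted p of 0.145, and without WT/WT mouse 1 of 12 months it was -0.67 (adjusted p = 0.0165). With 3 surrogate variables in edgeR it was -0.11.

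Itgb3, known from platelets, bone and microvessels, had a mean of 42.6 counts per library and was not tested with the other genes. Its levels ran from 2.69 to 4.50 CPM in WT/WT and from 2.49 to 5.58 CPM in 304Q/304Q mice at 2 months. At 12 months they ran from 1.43 to 2.23 CPM and from 0.921 to 3.78 CPM. The WT/WT mice of 12 months all lay below those of 2 months, and the other groups overlapped. In a fit with no limit on counts, this age difference was -0.97 (SE 0.294, adjusted p = 0.0485), and the genotype differences were 0.11 (adjusted p = 1.0) and 0.42 (adjusted p = 0.5).

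**Figure D3:**
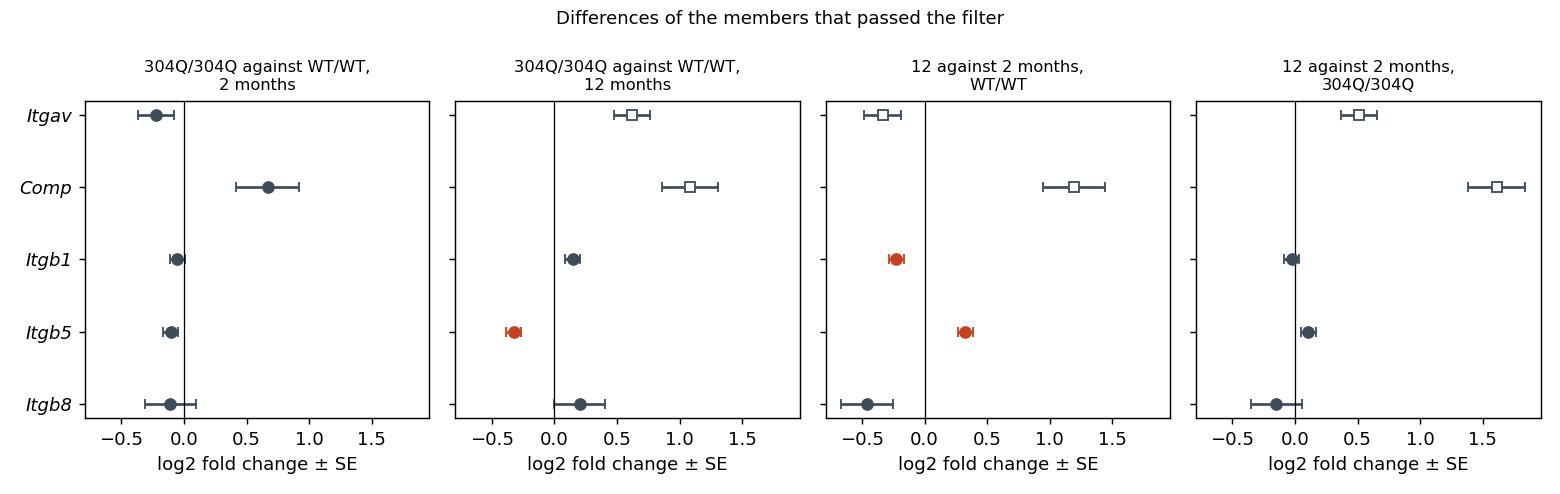
Log2 fold changes with their SE for the 5 genes that passed the limit of counts, in 4 comparisons. Filled red points have an adjusted p of at most 0.05, filled dark points do not, and open squares are values of Itgav and Comp with no test; Itgb5 is at -0.33 between genotypes at 12 months and at 0.33 with age in WT/WT mice.

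The makeup of the beta subunits differed in WT/WT mice of 12 months. Itgb5 made up 62.3% ± 3.10 (SD, n = 5) of the summed RPKM of the 4 beta genes in these mice, against 54.0% ± 1.88 in 304Q/304Q mice of 12 months and 51.7% ± 2.94 and 51.1% ± 3.06 in WT/WT and 304Q/304Q mice of 2 months. Itgb1 made up 29.6% in WT/WT mice of 12 months and between 35.6% and 36.8% in the other groups. The sum itself was 48.0 ± 1.19 RPKM in WT/WT and 44.2 ± 1.50 RPKM in 304Q/304Q mice of 12 months. These shares are a description, since RNA levels do not give the number of receptor pairs. Itgb5 and Itgb8 followed the GC slope in opposite directions, and the median slope was highest in WT/WT mice of 12 months (0.134). Shares with the GC trend removed were not computed.

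Per unit of Itgb5, Itgav was at 0.0967 ± 0.0244 in the WT/WT mice of 12 months and at 0.187 ± 0.0301 in the 304Q/304Q mice of that age (ratio of RPKM, SD, n = 5). The highest WT/WT ratio of 0.136 and the lowest 304Q/304Q ratio of 0.135 just overlapped. At 2 months these ratios were 0.155 and 0.142. Across mice, Itgav and Itgb8 varied together, with r = 0.627 over the 20 mice and 0.853 with group means removed, and Itgav and Itgb5 against each other, with r = -0.474 and -0.557. These genes share their libraries and, as given above, the GC slope.

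**Figure D4:**
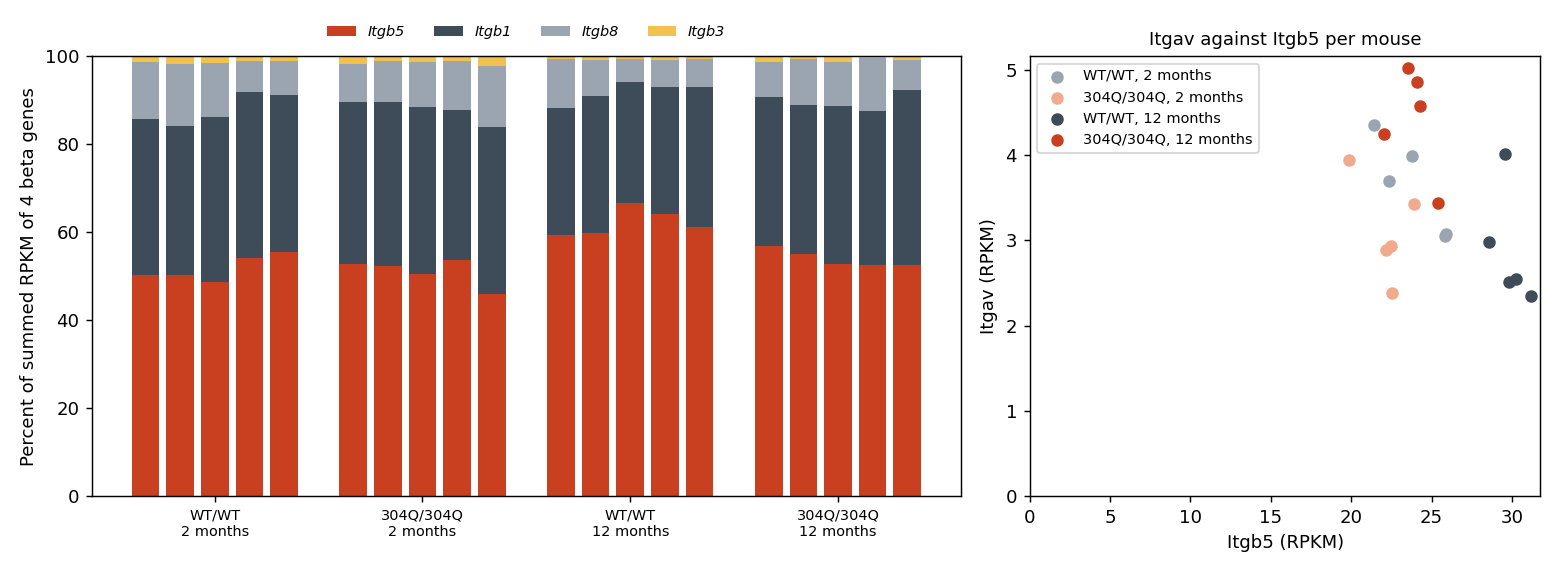
Left, percent of the summed RPKM of Itgb1, Itgb3, Itgb5 and Itgb8 per mouse (1 bar per mouse, 5 per group). Right, Itgav against Itgb5 in RPKM per mouse; the WT/WT mice of 12 months have the highest Itgb5 share (62.3% on average) and 4 of the 304Q/304Q mice of 12 months lie above 4 RPKM of Itgav.

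The genes around these receptors were examined in lists of ligands, TGF-beta genes and adaptors. At 2 months, 0 genes of these lists had an adjusted p of at most 0.05, where 0.0494% of all genes did, so that this count says little. At 12 months, the other integrin subunits did not pass the test either, with 0 of 5 tested alpha and 0 of 3 tested beta subunits. Over all genes, 12.5% passed there. The 2 alpha subunits of highest level were Itga3, of laminin receptors, at 89.1 ± 5.81 CPM in WT/WT and 92.1 ± 4.43 CPM in 304Q/304Q mice, and Itga7, the laminin receptor of muscle, at 69.6 ± 3.41 and 60.9 ± 2.99 CPM (adjusted p = 0.082). Of the beta list, Itgbl1, an integrin-like secreted protein, was at 22.9 and 28.4 CPM and Itgb4, of epithelial laminin receptors, at 25.9 and 25.5 CPM.

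Of 17 tested ligands of alpha-v integrins, 2 were higher and 1 was lower in 304Q/304Q mice at 12 months. This share was near the 12.5% of all genes that passed, and the median log2 fold change was -0.09 against -0.0039 over all genes. Tnc, the gene of the matrix protein tenascin C, rose from 19.2 ± 3.87 to 30.6 ± 3.57 CPM (SD, n = 5), a log2 fold change of 0.67 (SE 0.128, adjusted p = 0.000915). Ccn2, the gene of connective tissue growth factor, fell from 7.04 ± 1.30 to 4.01 ± 0.708 CPM, by 0.81 on the log2 scale (SE 0.224, adjusted p = 0.0184). Without 304Q/304Q mouse 2 of 12 months, Ccn2 had an adjusted p of 0.0515, and with 3 surrogate variables in edgeR one of 0.0622. L1cam, a neuronal adhesion molecule named after its values were seen, rose by 0.20 (adjusted p = 0.0236) and lost the call with 3 surrogate variables (adjusted p = 0.10 in edgeR) and without WT/WT mouse 3 or 304Q/304Q mouse 4 or 5 of 12 months (0.0526 to 0.0765).

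Of 11 tested TGF-beta target genes, 6 were lower in 304Q/304Q mice at 12 months with an adjusted p of at most 0.05 and 0 were higher, where 12.5% of all genes passed. Their median log2 fold change was -0.26. All 6 had groups that did not overlap, against 8.94% of all genes. Besides Ccn2, they were named after their values were seen. The list itself was chosen with earlier results of these data known, so that its share is given as a description. Ski, an inhibitor of SMAD signalling, fell from 384.3 to 320.2 CPM (adjusted p = 0.000605), and Pmepa1, a membrane protein that dampens TGF-beta signalling, from 23.6 to 17.4 CPM (adjusted p = 0.00594). Id2, an inhibitor of helix-loop-helix factors, fell from 148.5 to 123.9 CPM (adjusted p = 0.013), and Bhlhe40, a transcription factor, from 146.0 to 110.5 CPM (adjusted p = 0.00103). Ltbp2, a microfibril protein related to the latent TGF-beta binding proteins, fell from 69.8 to 55.3 CPM (adjusted p = 0.0121). These genes also respond to other signals, and the activity of TGF-beta was not measured.

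Of 17 tested genes of latent TGF-beta and its receptors, 0 were higher and 1 was lower at 12 months, where 12.5% of all genes passed. The lower gene was Ltbp2 again. Ltbp3, which binds latent TGF-beta, was at 127.3 ± 8.95 and 113.0 ± 7.91 CPM (adjusted p = 0.0804), and Smad3, which carries the signal, at 70.7 ± 7.32 and 64.9 ± 2.67 CPM (adjusted p = 0.249). With age, 5 of the 17 genes rose in WT/WT mice and 0 in 304Q/304Q mice, where 11.5% and 7.26% of all genes passed in either direction. The difference between these counts was not tested.

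Relatives and binding partners of Comp gave no higher calls. Of 3 tested thrombospondin genes, 0 passed the test in either direction at 12 months, where 12.5% of all genes did. Thbs2 was at 10.4 ± 1.39 CPM in WT/WT and 10.2 ± 1.56 CPM in 304Q/304Q mice, and Thbs1, an activator of latent TGF-beta, at 7.82 ± 1.52 and 6.01 ± 0.992 CPM (adjusted p = 0.324). Of 11 tested genes of Comp-binding and cartilage matrix proteins, beside the same 12.5% of all genes, 0 were higher and 1 was lower. It was Adamts4, a matrix protease named after its values were seen, which fell from 52.9 to 43.9 CPM (adjusted p = 0.0232) and lost the call with the GC trend removed (adjusted p = 0.0997). Without WT/WT mouse 2 or 3, or 304Q/304Q mouse 1 or 4 of 12 months, its adjusted p lay between 0.052 and 0.0594. Fn1, the gene of fibronectin, was at 78.7 and 70.2 CPM, and Grn, the gene of the Comp-binding growth factor progranulin, at 63.0 and 66.9 CPM.

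Of 20 tested adaptors and kinases that act on integrin tails, 1 rose and 2 fell at 12 months, again a share near the 12.5% of all genes. Ptk2b, the gene of the kinase Pyk2, fell from 31.3 ± 2.59 to 15.3 ± 3.12 CPM (SD, n = 5), a log2 fold change of -1.04 (SE 0.132, adjusted p = 6.8e-06). It rose with age in both genotypes, by 1.62 (SE 0.136) in WT/WT and 0.75 (SE 0.138) in 304Q/304Q mice, and the difference of -0.87 (SE 0.193) passed the interaction test (adjusted p = 0.0152). The other 2, named after their values were seen, also passed the interaction test, where 1.95% of all genes did. Ptk2b and these 2 were named for their difference at 12 months, and the same values enter the interaction, so that it is no separate result. Parva, the gene of the actin-binding adaptor alpha-parvin, rose from 143.1 ± 8.80 to 195.2 ± 9.27 CPM (adjusted p = 4.3e-06). Its interaction had an adjusted p of 0.0238, which lay between 0.0506 and 0.0516 without 304Q/304Q mouse 4 of 2 months or mouse 1 or 4 of 12 months, and was 0.0681 with no limit on counts and 0.13 with the trends with GC content and exon length removed. Bcar1, the gene of the docking protein p130Cas, fell from 276.7 ± 14.1 to 208.0 ± 7.46 CPM (adjusted p = 4.6e-06), with an interaction of -0.40 (SE 0.0716, adjusted p = 0.00309).

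Where 12.5% of all genes passed at 12 months, 0 of 9 tested genes of the alpha-v pathway of cell uptake rose and 1 fell. It was the receptor Mertk, named after its values were seen, at 25.4 ± 5.42 and 18.6 ± 1.37 CPM (adjusted p = 0.0379), and the call was lost in 8 of the 20 fits that each left out 1 library. These were all fits without a 12-month library other than WT/WT mouse 2 or 4, and the adjusted p was highest, 0.111, without WT/WT mouse 3. Rac1, the small GTPase that drives the uptake, was at 316.4 and 354.7 CPM (adjusted p = 0.0853), and its activator Elmo2 at 291.1 and 289.7 CPM.

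**Figure D5:**
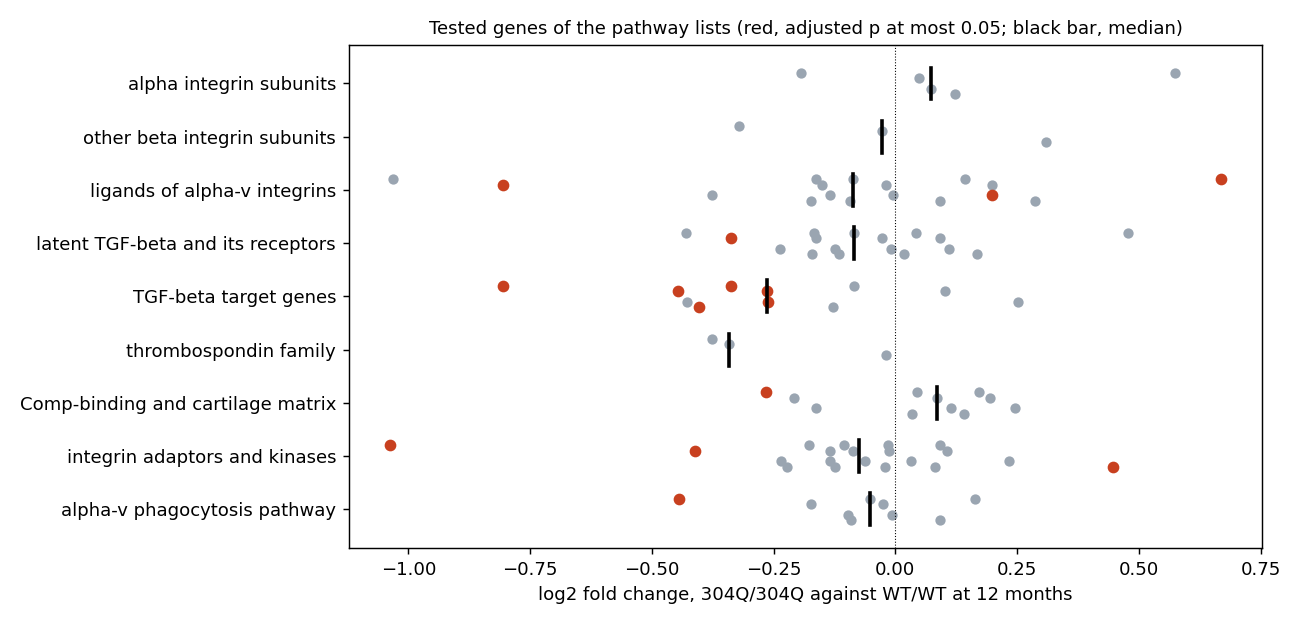
Log2 fold changes of 304Q/304Q against WT/WT at 12 months for the tested genes of 9 lists (1 point per gene; red, adjusted p at most 0.05; black bar, median). The TGF-beta target genes have 6 of 11 genes in red, all below 0, and a median of -0.26, where 12.5% of all tested genes passed in either direction. All lists were chosen with earlier results of these data known.

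Markers of other cell types differed at 12 months beside these genes. In 304Q/304Q mice, 9 of 12 Purkinje cell markers, 6 of 15 astrocyte and Bergmann glia markers, 6 of 15 markers of myelinating oligodendrocytes and 4 of 9 markers of inhibitory interneurons were lower, and 0 of each list were higher, where 12.5% of all genes passed in either direction. Of 12 granule cell and 10 oligodendrocyte precursor markers, 0 passed. DEGs among them included Pcp2, Pcp4 and Rgs8 of Purkinje cells, Agt, Gdf10, Gjb6 and Aldh1l1 of astrocytes and Mobp, Mal and Hapln2 of oligodendrocytes. The astrocyte list summed to between 7006 and 7087 CPM in WT/WT and between 5855 and 6248 CPM in 304Q/304Q mice. Of 5 tested blood markers, the 4 globin genes Hba-a1, Hba-a2, Hbb-bs and Hbb-bt, close copies between which reads may be split, were lower, with sums from 117.2 to 249.3 and from 97.0 to 114.3 CPM. No marker of these lists was at 0 throughout a group. Their part in the levels of the integrin genes and of the TGF-beta target genes was not tested.

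The genes whose log2 CPM followed each member most closely over the 20 mice differed between the members. For Itgav these were Camta1, Ids, Prkacb, Stx12 and Kcnj3 (r from 0.898 to 0.944, of 12152 genes, and from 0.836 to 0.913 with group means removed). For Itgb8 they were Arhgap5, Ptpn4, Galnt13, Mef2a and Mib1 (r from 0.938 to 0.951), and these correlations were as high with group means removed (0.939 to 0.95). For Itgb5 they were Kcnc4, Stac2, Cotl1, Ptk2b and Stard10 (r from 0.875 to 0.905, and from 0.419 to 0.82 with group means removed). The kinase gene Ptk2b described above is among them, with r = 0.88, or 0.443 with group means removed. For Itgb1 they were Ssh2, Asxl3, Fam168a, Tnc and Pde4b (r from 0.77 to 0.83, and from 0.382 to 0.724 with group means removed). The ligand gene Tnc is among them, with r = 0.773, or 0.461 with group means removed. For Comp they were Rasa4, Vwa5b2, Fam163b, Hsf4 and Kif5a (r from 0.88 to 0.903), and with group means removed these fell to between 0.14 and 0.511. These are descriptions over libraries that share groups, depth and the GC trend.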

How the data were processed

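Stranded libraries of polyA-enriched cerebellar RNA were sequenced by the authors, who used STAR on GRCm38 and Rsubread and deposited the resulting whole-number counts, without normalization, for 29200 genes in 20 mice. Whether the counting used the strand is not given in the sources used here. These deposited counts were scaled by TMM in edgeR 4.0.16 (R 4.3.3). The test covered the 12153 genes whose mean reached 50 counts, which hold 99.3% of all counts, and used edgeR's quasi-likelihood method fitting 1 mean per group (4 groups). P-values were Benjamini-Hochberg adjusted over all tested genes. DEGs had an adjusted p of at most 0.05 together with an absolute log2 fold change of 0.5 or more. For log2 CPM, a prior count of 2 was added. The fits were tested on simulated counts.

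The depth was 11385380 to 27636687 counts per library. Counting error is relatively largest for Comp and Itgb3, which had the fewest counts of the members. Replicates differed by more than sampling noise (chi-square over its degrees of freedom was at least 4.43). The annotation was GENCODE M21, which holds 29150 of the gene IDs, and coding sequences were taken from its principal transcripts.

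The 6 members and all gene lists were chosen with earlier results of these data known. The genes named are the members, the DEGs of each pathway list or, with none, its 2 tested genes of highest level, and for each member the 5 genes of highest correlation; others are said to be named after their values were seen. Marker lists are given by sums and counts, with up to 4 of their DEGs; results for some genes are left out.

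As alternatives, DESeq2 1.42.0 was run alone and with 3 surrogate variables of sva 3.50.0, and edgeR with these variables, with RLE scaling, with other filters, with only the groups compared, with a block for the replicate number and without each library in turn. Fits with each library's trend with GC content (and exon length) taken out were added after the data were seen. The authors' own tests used DESeq2 with surrogate variables.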

Additional observations from a re-analysis of the deposited data

How the results depend on the processing

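Itgb5 kept its direction and an adjusted p of at most 0.05 at 12 months in all 30 alternative fits (log2 fold change between -0.36 and -0.25), and Itgav and Comp kept their direction there, at 0.38 to 0.77 and 0.94 to 1.24. With surrogate variables, the age difference of Itgav in WT/WT mice was -0.04 in edgeR and DESeq2, and its interaction 0.53. Itgb8 turned its sign with surrogate variables in DESeq2 and edgeR at 2 months (0.01311 and 0.01008), at 12 months (-0.06803 and -0.07527) and in the interaction (-0.08114 and -0.08535), and its age difference in WT/WT mice was -0.11 with surrogate variables in edgeR. The cause was not tested. The fall of Itgb1 with age in WT/WT mice lost its call with only the groups compared (adjusted p = 0.0706) and with the trends with GC content and exon length removed (0.116). Comp and Itgb3 could not be fitted with at least 50 counts in every library.

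Some listed genes that did not pass the test at 12 months also turned their sign. With surrogate variables in DESeq2 and edgeR, Itgb4 was at 0.1187 and 0.1106, Thbs2 at 0.1561 and 0.1484 and Itgbl1 at -0.2272 and -0.233. With the trend with GC content, or those with GC content and exon length, removed, Itgb4 was at 0.06283 and 0.05088 and Elmo2 at 0.05006 and 0.04166. With 1 library left out, Itgb4 lay between -0.1077 and 0.04476, Thbs2 between -0.1123 and 0.05217 and Elmo2 between -0.0209 and 0.004083.

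The count of DEGs at 2 months was 1, and it was 8 with DESeq2, 10 and 9 with surrogate variables in DESeq2 and edgeR, 3 with no filter, 3 with the GC trend removed, 3 with both trends removed, and 1 to 2 with 1 library left out. The 314 DEGs of age in WT/WT mice became 204 and 185 with surrogate variables in DESeq2 and edgeR and 202 with both trends removed. They lay between 205 and 595 with 1 library left out, lowest without WT/WT mouse 1 of 2 months and highest without WT/WT mouse 1 of 12 months. The 114 DEGs of the interaction became 173 with DESeq2 and lay between 75 (without WT/WT mouse 3 of 12 months) and 265 (without WT/WT mouse 1 of 12 months). The 375 DEGs at 12 months and the 277 of age in 304Q/304Q mice stayed within 1.5 times of these counts. Same-numbered mice did not deviate together (median r of -0.04 over 30 pairs, -0.323 to 0.551), so the numbers do not pair the samples, and with the replicate number as a block there were 1, 364, 309, 264 and 104 DEGs at 2 months, at 12 months, of age in WT/WT, of age in 304Q/304Q and of the interaction.

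Depth limits Comp and Itgb3 most, with 12 to 223 counts per library.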
